A study of Mus musculus with 54 samples.

Results

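The striatum of 13 mice from litters 1 and 3 was compared between heterozygous Mbd5+/GT and wild-type (WT) animals, with litter as a term of the fit. The libraries were chosen by their labels, as those of striatum from these 2 litters, and make up 13 of the 54 libraries of the series. They came from 6 Mbd5+/GT and 7 WT mice. The other striatal libraries, from 4 Mbd5+/GT mice and 1 WT mouse, belong to litter 2 and were left out, since 1 WT mouse gives no spread. The mice were on a C57BL/6 background and 8 weeks of age. Mbd5+/GT mice carry a gene-trap cassette (pU-21B) in the second intron of 1 copy of Mbd5, a hypomorphic allele present in all cells of the animal. The WT mice carry no trap. Litter 1 held 3 Mbd5+/GT and 3 WT females. Litter 3 held 2 females and 1 male that were Mbd5+/GT, and 2 females and 2 males that were WT. The striatal libraries of both WT males of litter 3 (mice M751 and M752) are labelled as repeated.

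MBD5 belongs to the methyl-CpG-binding domain proteins and is a partner of the PR-DUB complex, which removes ubiquitin from histone H2A. Loss of 1 copy of the human gene causes a neurodevelopmental disorder with intellectual disability, seizures and autistic features. The striatum receives input from cortex, thalamus and dopamine neurons. Most of its neurons are inhibitory projection neurons of the direct pathway, which carry dopamine D1 receptors, or of the indirect pathway, which carry D2 receptors.

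Gene counts summed to between 26130088 and 31871409 per library (median 28728843). Xist and Ddx3y gave the labelled sex in all 13 libraries. Projection neuron markers were well detected, with all 14 members of the shared list tested, but 2 WT libraries stood apart. The mean log2 CPM (a count scaled to library size) of that list was 5.96 in WT mouse M754 and 6.51 in WT mouse M761, against 7.41 to 9.41 in the other 11 libraries. Choroid plexus genes, which mark tissue of the ventricle, varied from −0.45 to 6.11 on the same scale. Synthetic ERCC spike-in RNAs took 0.092% to 0.728% of a library. In litter 1 they took 0.092% to 0.125% in Mbd5+/GT mice and 0.285% to 0.728% in WT mice, without overlap. In litter 3 the shares were 0.133% to 0.451% and 0.129% to 0.651% and overlapped. The amount added is not given in the sources used here.

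Mbd5 was lower in Mbd5+/GT striatum, as the first check of the labels. Mbd5 (ENSMUSG00000036792) spans chr2:48949508-49325405 of GRCm38 and is transcribed from the plus strand. Its normalized count had a lowest value of 994, a median of 1104 and a highest value of 1210 in Mbd5+/GT mice. In WT mice the values were 1057, 1337 and 1592. The groups overlapped, with 6 of 6 Mbd5+/GT values under the WT median. The lowest WT value, 1057, was that of mouse M761, and of the Mbd5+/GT mice only M760, at 994, was lower. Mbd5 thus does not bear out the label of mouse M761. The means were 1118 ± 82.4 (SD, n = 6) and 1367 ± 188 (SD, n = 7), so that the Mbd5+/GT mean was 81.7% of WT. The log2 fold change was −0.29 (standard error 0.10, unadjusted p = 0.012, adjusted p = 0.23 from edgeR's quasi-likelihood test). An exact permutation test over the 700 splits that keep each litter's numbers gave a 2-sided p of 0.019. The log2 fold change was −0.21 in litter 1 and −0.36 in litter 3. With the spike-in share in the fit it was −0.33, without WT mouse M761 −0.35, and with all 18 mice −0.43. In cortex and cerebellum of the same mice it was −0.51 and −0.31, and the differences from striatum, 0.23 ± 0.18 and 0.01 ± 0.18 (estimate ± standard error), had unadjusted p of 0.22 and 0.94 in edgeR's fit across all genes. 

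**Figure D1:**
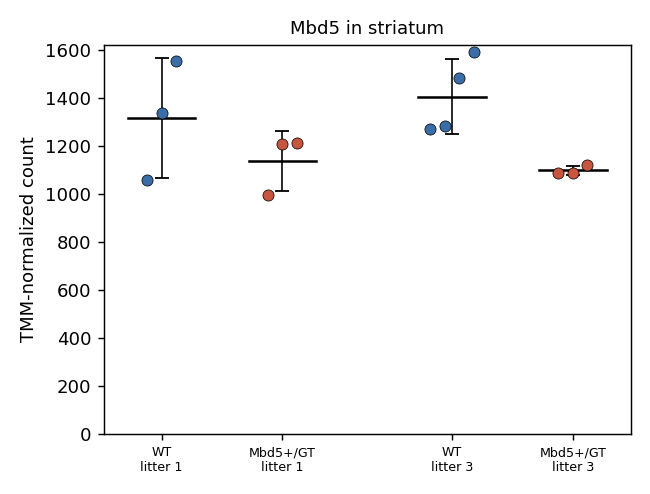
Normalized counts of Mbd5 in striatum, 1 point per mouse, by genotype and litter, with the mean (line) and SD (bars). In Mbd5+/GT mice the values run from 994 to 1210 and in WT mice from 1057 to 1592, so the groups overlap.

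Across all genes, no single gene met the adjusted threshold, while many small differences were present in both directions. Of 18573 genes tested, 0 (0%) had an adjusted p under 0.05 by edgeR's quasi-likelihood test, and the smallest adjusted p was 0.23. At an unadjusted p under 0.05, 1688 genes (9.09%) were higher in the heterozygotes and 1649 (8.88%) were lower. DESeq2's Wald test gave 35 genes with an adjusted p under 0.05. The edgeR count rested on 1 library: without WT mouse M757 it was 1210 genes, and without any other single library it was 0. Mouse M757 had the lowest spike-in share of the WT mice, 0.129%. The unadjusted count was 2190 without Mbd5+/GT mouse M763.

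The 12 genes with the smallest p among those lower in Mbd5+/GT mice, and of the same direction in both litters, were mostly genes of short transcripts. Cebpd encodes a transcription factor of the C/EBP family that responds to inflammatory and hormonal signals. Its normalized counts were 55.8, 61.9 and 77.7 (lowest, median and highest) in Mbd5+/GT mice. In WT mice they were 90.7, 104 and 133. The groups did not overlap, and the log2 fold change was −0.79 (standard error 0.15, unadjusted p = 0.00012). Psmg4, a chaperone of proteasome assembly, had 119, 129 and 163 counts in Mbd5+/GT mice and 164, 223 and 282 in WT mice. It did not overlap either, at a log2 fold change of −0.70 (standard error 0.14). Snrpd2, a core protein of spliceosomal particles, had 857, 1096 and 1198 counts against 1214, 1598 and 2052. These groups stood apart by a narrow margin, with a log2 fold change of −0.62 (standard error 0.13). Rgcc, a regulator of the cell cycle, was the other gene of this group without overlap, at −0.55. The remaining 8 were Atp5e and Rps14, which are described with their groups, Id1, an inhibitor of bHLH transcription factors (−0.57), Selenom, a selenoprotein of the endoplasmic reticulum (−0.62), Mpdu1, which acts in protein glycosylation (−0.36), Crip1 (−0.67), Mcrip2 (−0.63) and Flywch2 (−0.62).

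The 12 leading genes higher in Mbd5+/GT mice had long transcripts. Zfpm2 encodes a cofactor of GATA transcription factors. Its normalized counts were 226, 275 and 493 in Mbd5+/GT mice and 98.2, 169 and 194 in WT mice. The 2 groups did not overlap, and the log2 fold change was 1.05 (standard error 0.19, unadjusted p = 7.0e-05). Aff2, an X-linked gene whose silencing causes a form of intellectual disability in humans, had 49.8, 92.8 and 127 counts against 12.8, 28.6 and 58.1. Its groups overlapped, and its log2 fold change of 1.30 had a standard error of 0.33. Kif21a, a kinesin motor, had 4304, 5090 and 5540 counts against 2769, 3090 and 4562. It overlapped as well, at a log2 fold change of 0.53 (standard error 0.12). Genes of cell adhesion and the cytoskeleton among the rest were Cdh2, which encodes N-cadherin (0.45), Magi2, a synaptic scaffold (0.41), Fmn1, a formin (0.83), and Arhgap26, a GTPase-activating protein (0.46). The others were the ubiquitin ligase Cblb (0.46), B3galt2 (0.73), Etl4 (0.71), Ankrd26 (0.42) and Ccdc82 (0.69). Among these 24 genes the groups did not overlap for 7, against 36 of all 18573 genes (0.194%). The 24 were chosen by their p, so this count describes the choice. With the spike-in share as a further term, 23 of the 24 kept an unadjusted p under 0.05, and Id1 did not (−0.31). That refit used the libraries the genes were chosen from, so this count is no independent check.

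**Figure D2:**
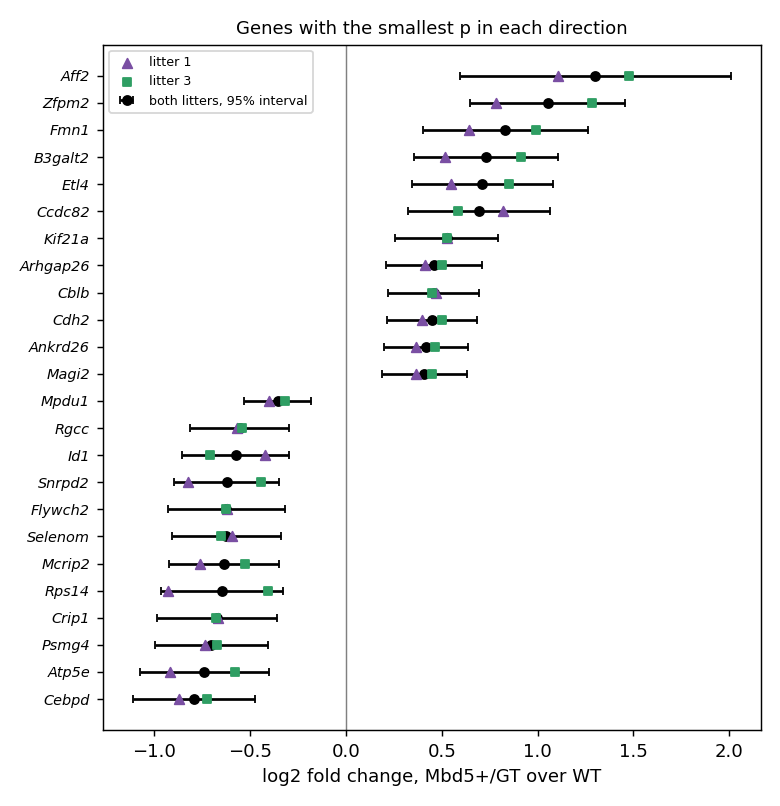
Log2 fold changes of the 12 genes per direction with the smallest p, over both litters with their 95% interval (black), and in litter 1 and litter 3 alone. Values range from −0.79 for Cebpd to 1.30 for Aff2, and both litters lie on the same side of 0, as the choice of genes required.

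Genes of the cytosolic ribosome were lower nearly throughout. Ribosomal proteins, with ribosomal RNA, form the particles that translate messenger RNA. Of 81 ribosomal protein genes, all tested, 76 were lower at an unadjusted p under 0.05 and 0 were higher, beside 8.88% of all genes lower. Their median log2 fold change was −0.42, against −0.01 over all genes. The genes named by rule were Rps14, Rpl39, Rpl41, Rpl27 and Rpl4. Rps14 had 3795, 5639 and 6363 counts in Mbd5+/GT mice and 5914, 9155 and 9493 in WT mice. The groups overlapped in part, with a log2 fold change of −0.65 (standard error 0.15). Rpl39 had 1300, 1607 and 1845 counts against 1747, 2484 and 2728, at −0.52 (standard error 0.12). Rpl4, the most abundant member, had 13896, 15822 and 17485 counts against 15309, 18009 and 21476, at −0.22 (standard error 0.10). Of the 5 members that missed the threshold 4 were below 0, among them Rpl15, Rpl22l1 and Rpl7l1, and Rpl24 was above 0 at 0.56 (unadjusted p = 0.071). Ribosomal protein genes have many processed copies, so their counts are uncertain where reads align to several places.

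Many ribosomal protein mRNAs begin with a C followed by a run of pyrimidines (C or T), the 5′ TOP motif, through which their translation is regulated together. Searched on the gene's own strand, a C with at least 4 pyrimidines after it stood at the annotated start of 14 of the 60 ribosomal protein genes that matched the RefSeq table (23.3%), and of 3.01% of the 27025 genes in the table. It began within 5 bases of the start in 48.3% and 21.2%. To show such pyrimidine runs near the start, the 30 bases around it are given for 4 genes (RefSeq, GRCm38.p6). They are those of smallest p, among genes with 1 listed start whose sequence may be shown, that held it within 5 bases, and were chosen for holding it. Each runs 5′ to 3′ with the annotated start at its base 16 and the pyrimidine run in capitals. The run begins at an offset from the start of −4 bases in Rpl39, 1 in Rpl18, 2 in Rpl13a and −3 in Fau. Whether these runs act as a TOP motif was not tested. The match is a description of these letters only.
Rpl39 (chrX:37085208-37085237, minus strand): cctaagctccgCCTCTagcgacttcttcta
Rpl18 (chr7:45718056-45718085, plus strand): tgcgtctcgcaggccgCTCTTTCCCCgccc
Rpl13a (chr7:45128731-45128760, minus strand): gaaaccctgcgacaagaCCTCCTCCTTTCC
Fau (chr19:6057932-6057961, plus strand): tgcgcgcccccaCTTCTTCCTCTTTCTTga

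Nuclear genes of oxidative phosphorylation, whose products form the respiratory chain and ATP synthase of mitochondria, were lower in the same way. Of 84 tested, out of 85, 68 were lower at an unadjusted p under 0.05 and 0 were higher, beside 8.88% of all genes lower. Their median log2 fold change was −0.39. Atp5e, the epsilon subunit of ATP synthase, had 1648, 2442 and 2869 counts in Mbd5+/GT mice and 2717, 3915 and 5057 in WT mice. The groups overlapped slightly, at a log2 fold change of −0.74 (standard error 0.16). Uqcr11 of complex III was at −0.68, and Ndufa2 and Ndufa11 of complex I were at −0.56 and −0.53. Atp5b, the most abundant member and the catalytic subunit of ATP synthase, was at −0.28 (standard error 0.11). Of 13 genes encoded by mitochondrial DNA 0 were higher and 0 lower at that level, and their median log2 fold change was 0.29. The median was 0.54 in litter 1, where 4 were higher, 0.06 in litter 3, and −0.18 with the spike-in share in the fit. Of all 18573 genes, 1141 were higher in litter 1. In mt-Co1, the most abundant of the 13, the log2 fold change was 0.26 (standard error 0.16).

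The level of both groups was clearest in litter 1. The mean log2 CPM of ribosomal protein genes was 6.85, 7.02 and 7.36 in the Mbd5+/GT mice of litter 1 and 7.50, 7.50 and 7.80 in its WT mice, without overlap. In litter 3 it was 7.04, 7.24 and 7.30 in Mbd5+/GT mice and ran from 7.23 to 7.74 in WT mice, with overlap. In the fit with a genotype term per litter, 71 ribosomal protein genes were lower in litter 1 and 8 in litter 3, with median log2 fold changes of −0.53 and −0.31. For oxidative phosphorylation 58 and 8 genes were lower, at −0.49 and −0.27. Of all 18573 genes, 1424 were lower in litter 1 and 434 in litter 3. The litter difference itself is tested further on. In litter 2 the order was the other way: on a scale common to all 18 striatal libraries the 4 Mbd5+/GT mice had ribosomal protein levels of 7.49 to 7.70 and the WT mouse 7.28. With all 18 mice in the fit 50 ribosomal protein genes were lower and 1 higher.

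**Figure D3:**
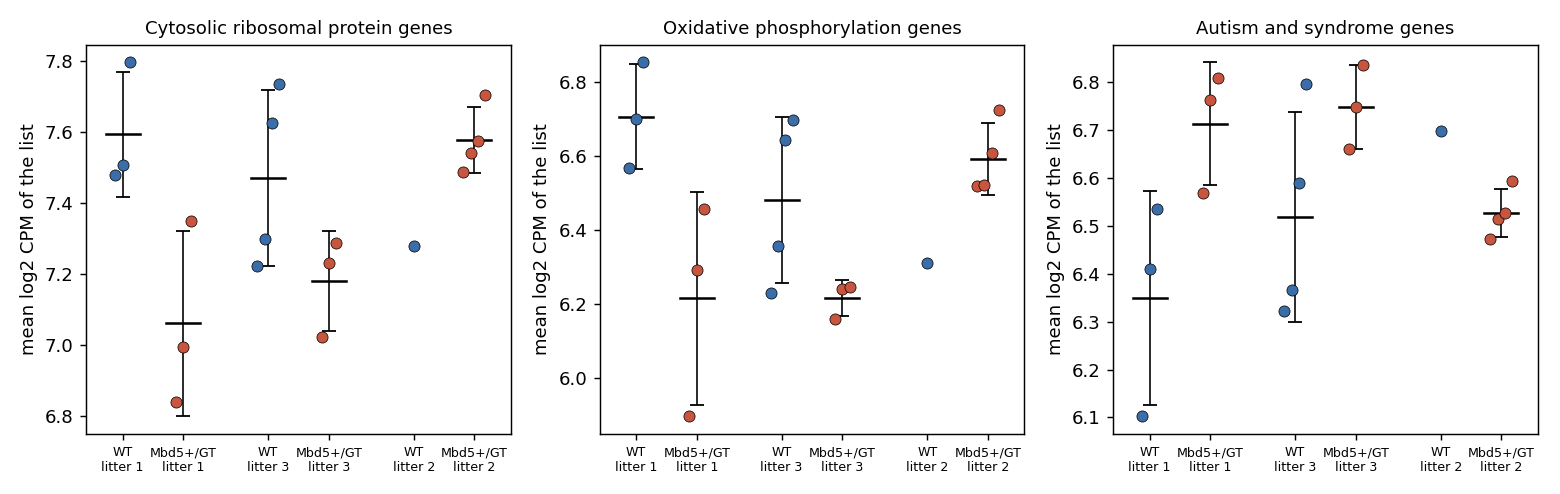
Mean log2 CPM of 3 gene lists in each striatal library on a scale common to all 18, by genotype and litter, with the mean (line) and SD (bars) where a group has over 1 mouse. Mean ribosomal protein and oxidative phosphorylation levels are lower and mean autism gene levels higher in Mbd5+/GT mice of litters 1 and 3. In litter 2 the single WT mouse has the lower ribosomal (7.28) and oxidative phosphorylation (6.31) levels and the higher autism gene level (6.70).

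In litters 1 and 3 the spike-in share moved with these genes in part. The WT mouse with the lowest share, mouse M757, had a ribosomal protein level of 7.23, below those of all other WT mice in litters 1 and 3, which had shares of 0.285% or more. Mbd5+/GT mouse M753 had a share of 0.451% and a level of 7.24. Litter 2 did not follow that order on the scale common to 18 libraries. There Mbd5+/GT mouse M768 had a share of 0.214% and a level of 7.70, and WT mouse M765 had 0.515% and 7.28. With the log2 spike-in share added to the fit, 3 ribosomal protein genes and 7 oxidative phosphorylation genes were lower at an unadjusted p under 0.05, with medians of −0.25 and −0.28. Of all 18573 genes, 432 then had an unadjusted p under 0.05, of which 202 were lower. In cortex and cerebellum the share did not separate the genotypes (0.046% to 0.251% and 0.045% to 0.161% in cortex, 0.021% to 0.193% and 0.030% to 0.080% in cerebellum, Mbd5+/GT and WT). In litter 1 the share and the genotype cannot be told apart in striatum. Its part in the other results was not tested beyond that fit.

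**Figure D4:**
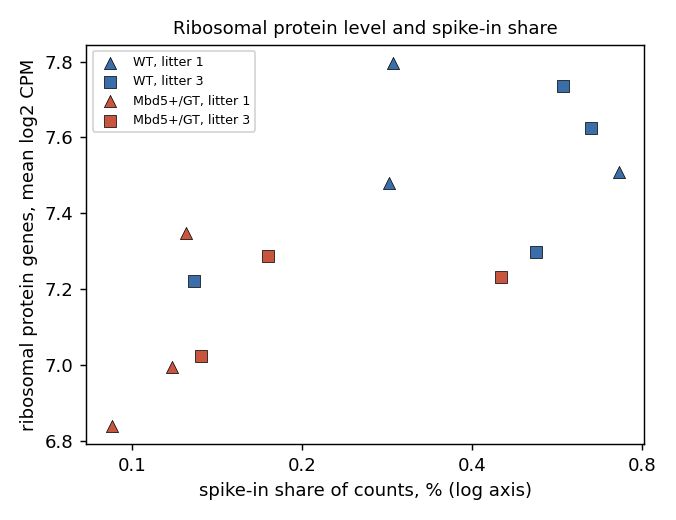
Mean log2 CPM of ribosomal protein genes against the spike-in share of counts (log axis) in the 13 striatal libraries, by genotype and litter, on the scale common to 18 libraries. Libraries with a share under 0.2% lie at or below 7.35, and those of WT mice with shares of 0.285% or more lie between 7.30 and 7.80. Mbd5+/GT mouse M753, with a share of 0.451%, lies at 7.23.

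Transcript length moved with the direction of the difference across the whole table. The length was that of the longest protein-coding transcript, known for 15379 of 15399 protein-coding genes tested. Of the 769 genes with transcripts under 1000 bases, 353 (45.9%) were lower and 1 higher at an unadjusted p under 0.05, and the median log2 fold change was −0.35. Without the ribosomal protein and oxidative phosphorylation genes, 266 of the remaining 673 short genes (39.5%) were lower, with a median of −0.33. The median was −0.19 for 1000 to 2000 bases, −0.03 for 2000 to 4000 bases and 0.13 for 4000 to 8000 bases. Of the 881 genes with transcripts of 8000 bases or more, 317 (36.0%) were higher and 3 lower, with a median of 0.25. In cortex of the same mice the medians of the shortest and longest genes were 0.05 and −0.05, and in cerebellum −0.00 for both. With the spike-in share in the striatal fit they were −0.23 and 0.14, and with all 18 mice −0.25 and 0.13. In litter 2 the order was the other way. The level of short less that of long genes, in log2, was −2.01 to −1.62 in the 4 Mbd5+/GT mice and −2.29 in the WT mouse. Ribosomal protein genes had a median length of 914 bases and oxidative phosphorylation genes of 863 bases, beside the −0.33 of other short genes. The part of length in the results for single lists was not tested.

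**Figure D5:**
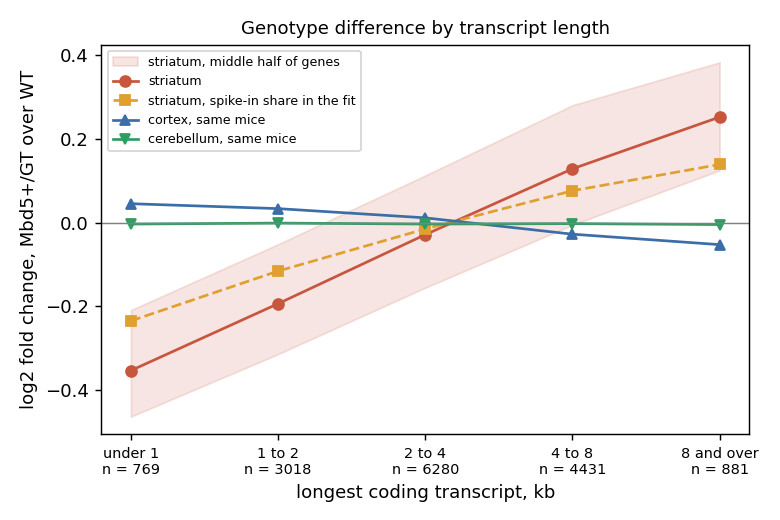
Median log2 fold change of protein-coding genes by the length of their longest coding transcript in striatum, in striatum with the spike-in share in the fit, and in cortex and cerebellum of the same mice. The shaded band runs from the lower to the upper quartile of genes in striatum. The striatal median goes from −0.35 in the shortest genes to 0.25 in the longest, and those of the other regions stay within 0.05 of 0 when rounded.

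Part of the genes of autism and of related syndromes were higher. They include chromatin regulators and synaptic proteins. Of 27 tested, out of 28, 11 passed an unadjusted p under 0.05 as higher and 0 as lower, beside 9.09% of all genes higher, and their median log2 fold change was 0.22. Setd5, a chromatin regulator of the SET family, had 3041, 3758 and 4109 counts in Mbd5+/GT mice and 2238, 2997 and 3422 in WT mice. All 6 Mbd5+/GT mice lay above the WT median, at a log2 fold change of 0.35 (standard error 0.10). Kmt2c, a histone H3 lysine methyltransferase, had 2082, 2415 and 2811 counts against 1333, 1753 and 2555, at 0.50 (standard error 0.15). Ctnnb1, the most abundant member, was at 0.12 (standard error 0.10). In litter 2 the order was the other way on the scale common to 18 libraries. The level of the list was 6.47 to 6.59 in the 4 Mbd5+/GT mice and 6.70 in the WT mouse. These genes had a median transcript length of 8509 bases, in the range where 36.0% of protein-coding genes were higher. With the spike-in share in the fit 0 members were higher, and 4 were higher without the 2 repeated libraries and 1 in litter 3. Of all 18573 genes, 230, 463 and 467 were higher in these fits, fewer than the 1688 of the main fit. The median of the list was 0.19, 0.16 and 0.21 in them.

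Relatives and partners of MBD5 showed smaller differences. Of 17 tested, 6 were higher at an unadjusted p under 0.05 and 1 was lower, beside 9.09% and 8.88% of all genes, with a median log2 fold change of 0.19. The number higher was 0 with the spike-in share in the fit, 0 without the 2 repeated libraries, 0 in litter 3 and 2 with all 18 mice. The medians in these fits were 0.11, 0.14, 0.17 and 0.08. Over all genes, 230, 463 and 467 of 18573 and, with all 18 mice, 1044 of 18546 were higher. The median transcript length of these 17 genes was 4987 bases, in the range of 4000 to 8000 bases where 20.0% of protein-coding genes were higher. Mbd4, a DNA glycosylase, was at 0.28, and Asxl1, the PR-DUB partner, at 0.23. Mbd3, a subunit of the NuRD complex, was the 1 lower member, with 2439, 3137 and 3586 counts in Mbd5+/GT mice and 3138, 3860 and 4532 in WT mice, at −0.33 (standard error 0.11). It also has the shortest transcript of the list, 1662 bases. Ogt, a sugar transferase that binds the PR-DUB complex, was at 0.33 and was the most abundant.

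Genes of stress granules, the RNA-protein assemblies that form when translation stalls, had 7 members higher and 0 lower of 15 tested, beside 9.09% of all genes higher, with a median log2 fold change of 0.21. The study named this term from these samples, so the direction is not independent evidence. The list had a median transcript length of 4472 bases, in the range of 4000 to 8000 bases where 20.0% of protein-coding genes were higher. Ddx6, an RNA helicase of mRNA decay, was at 0.24, Caprin1 at 0.28, Atxn2 at 0.22 and G3bp2, a nucleator of the granules, at 0.27. With the spike-in share in the fit 0 were higher and the median was 0.04. Without the 2 repeated libraries 0 were higher, with a median of 0.14, and in litter 3 0 were higher, with a median of 0.17. Of all 18573 genes, 230, 463 and 467 were higher in these fits.

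Projection neuron genes varied more between mice than between genotypes. Of the 14 genes shared by both pathways 0 were higher and 0 lower, with a median log2 fold change of −0.45 and 14 of 14 members below 0. The sign of the median turned between the litters, at 0.12 in litter 1 and −0.85 in litter 3, and without the 2 repeated libraries the median was 0.05. Ppp1r1b, which encodes DARPP-32, the integrator of dopamine signals, had 10609, 16138 and 37186 counts in Mbd5+/GT mice against 1636, 35143 and 78632 in WT mice. Its log2 fold change of −0.76 had a standard error of 0.70. Of the direct pathway genes 0 of 8 and of the indirect pathway genes 0 of 5 tested passed in either direction, with medians of −0.27 and −0.54. In litter 1 these medians were 0.06 and 0.09, and in litter 3 −0.62 and −1.11. Tac1, the substance P precursor, was at −0.47 (standard error 0.42) and Penk, the enkephalin precursor, at −0.71 (standard error 0.55). Without WT mice M754 and M761, which were set aside for their low level of these genes, 11 of the 14 shared genes were lower, with a median of −0.81. That choice raises the WT level, so the count is a description. Without these 2 mice, 1707 of all 18573 genes were lower, among them 70 of 81 ribosomal protein genes. In bulk tissue, fewer cells of a type and less RNA per cell cannot be told apart, and the part of dissection was not tested. Striatal interneuron genes gave 0 of 9 in either direction, with a median of −0.30, and Sst was at −0.30 (standard error 0.17).

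Vessel-associated genes were lower in part. Of 6 pericyte and smooth muscle genes 4 were lower and 0 higher, beside 8.88% of all genes lower, with a median log2 fold change of −0.47. Acta2, smooth muscle actin, had 227, 274 and 441 counts in Mbd5+/GT mice and 393, 428 and 635 in WT mice. Only 1 Mbd5+/GT mouse was above the WT median, and the log2 fold change was −0.69 (standard error 0.17). Vtn was at −0.48, Tagln at −0.61 and Kcnj8 at −0.47, while Rgs5, the most abundant, was at 0.15 (standard error 0.16). Of the endothelial genes, Cldn5, a tight junction protein of the blood-brain barrier, was lower at −0.61 (standard error 0.17) and Ly6c1 at −0.37. These were 2 of 10 tested, 0 were higher, and the median was −0.01 with 5 members on each side of 0. In the fit with the spike-in share 0 endothelial genes were lower. Of the pericyte and smooth muscle genes 3 were lower without the 2 repeated libraries (median −0.28), 1 with the spike-in share in the fit (median −0.23), 0 in litter 1 and 3 in litter 3.

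Among glia, microglial genes were mixed, with 4 lower and 1 higher of 12, beside 8.88% and 9.09% of all genes. Both without the 2 repeated libraries and with the spike-in share in the fit, 0 were lower and 0 higher. In these fits 917 and 202 of all 18573 genes were lower, and 463 and 230 were higher. C1qb and C1qc, subunits of complement C1q, were at −0.49 and −0.36 and Tmem119 at −0.27, while P2ry12, the purinergic receptor of resting microglia, was at 0.49. Astrocyte genes had 2 higher, Fgfr3 (0.19) and the glutamate transporter Slc1a2 (0.26), and 1 lower, Aldh1l1 (−0.21), of 12, and 0 in either direction under both of these alternatives. Oligodendrocyte precursor genes had 1 higher, Pdgfra (0.27), and 2 lower, Bmp4 and C1ql1 (both −0.47), of 8, and 0 in either direction with the spike-in share in the fit. Mature oligodendrocyte genes gave 0 in either direction, and Mbp was at −0.11 (standard error 0.29).

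Of markers of tissue next to the striatum, cortical excitatory neuron genes had 1 higher of 9, Rorb (0.52), beside 9.09% of all genes, with a median of 0.31, and Slc17a7 was at 0.16 (standard error 0.38). The cortical median was −0.17 in litter 1, 0.73 in litter 3 and 0.04 without the 2 repeated libraries. Motile cilium genes had 1 higher of 13, Cfap54 (0.57), with a median of 0.30. That median was −0.13 in litter 1, 0.77 in litter 3 and 0.09 with the spike-in share in the fit. Choroid plexus genes gave 0 in either direction with a median of −0.99, which was 1.01 in litter 1, −3.15 in litter 3 and 0.70 without the 2 repeated libraries, and Ttr spanned 190 to 112852 counts in the heterozygotes and 222 to 172390 in WT mice. Thalamic and hypothalamic, meningeal and erythrocyte genes also gave 0 in either direction. Of 14 immediate early genes 1 was lower, Egr4 (−0.68), and of 14 clock genes 1 was higher, Clock itself (0.39). Their part in the other results was not tested, apart from fits with the cortical or cilium level as a term, in which 73 and 75 ribosomal protein genes were lower.

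Whether the genotype effect differed between litters was tested as an interaction. Of 18573 genes, 0 (0%) had an adjusted p under 0.05 by the quasi-likelihood test, and 376 (2.02%) and 187 (1.01%) were more positive in litter 3 or in litter 1 at an unadjusted p under 0.05. DESeq2 gave 1 gene with an adjusted p under 0.05. In the quasi-likelihood test the smallest adjusted p was 0.98, and both shares together are below what a threshold of 0.05 gives without any effect. The genes named next led by unadjusted p, so a litter difference in them is not established. Stmn3, a microtubule regulator, had a log2 fold change of −0.82 in litter 1 and 0.04 in litter 3, and Tagln3 of −0.74 and 0.11. Prmt7, an arginine methyltransferase, was at −0.46 and 0.18. In the other direction Wnk4, a kinase, was at 0.32 and −1.74, Sh3d21 at 0.35 and −0.92, and the splicing kinase Clk1 at 0.41 and −0.23. Of the ribosomal protein genes 0 differed between litters at that level, and of the oxidative phosphorylation genes 2. The unadjusted count of 563 was 1013 without WT mouse M754, 1163 without WT mouse M762, 316 without Mbd5+/GT mouse M758 and 279 without WT mouse M761.

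The striatal differences were set against those in cortex and cerebellum of the same 13 mice. In cortex 0 of 18606 genes (0%) and in cerebellum 0 of 18246 genes (0%) had an adjusted p under 0.05 by the quasi-likelihood test. At an unadjusted p under 0.05, 235 (1.26%) were higher and 214 (1.15%) lower in cortex, and 26 (0.142%) and 31 (0.17%) in cerebellum. Ribosomal protein genes gave 0 in either direction in both regions, with medians of 0.07 and 0.02, against −0.42 in striatum. Zfpm2 was at 0.07 in cortex and −0.09 in cerebellum, and Cebpd at −0.03 and −0.32. Choroid plexus genes had 7 higher in cortex, with a median of 2.15.

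The difference of the effects was then tested in 1 fit over 39 libraries and 20459 genes. That fit did not hold the mouse as a block, so it treated the libraries of a mouse as independent. A fit with the mouse as a block is given as an alternative. Between striatum and cortex 0 genes (0%) had an adjusted p under 0.05 by the quasi-likelihood test and 1 by DESeq2. At an unadjusted p under 0.05, the effect was more positive in striatum for 798 genes (3.9%) and more negative for 525 (2.57%), among them 38 ribosomal protein genes. Slc39a10, a zinc transporter, was at 0.59 in striatum and −0.21 in cortex (difference 0.80, standard error 0.24). The deoxycytidine kinase Dck had a difference of 0.43 and the ubiquitin ligase Rnf111 of 0.47. Flywch2, Psmg4 and Snrpd2 led in the other direction, with −0.76, −0.72 and −0.73. Between striatum and cerebellum 0 genes (0%) passed the adjusted threshold by either tool, and 439 (2.15%) and 401 (1.96%) had an unadjusted p under 0.05, among them 22 ribosomal protein genes with a more negative effect in striatum. Dck (0.43), Gopc (0.38) and Slc35e3 (0.28) led upwards, and Fxyd2, a regulator of the sodium pump (−1.72), Dhrs7b (−0.47) and Flywch2 (−0.70) downwards.

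These region differences moved up or down as single mice were left out. With the mouse as a replicate block, 30 and 11 ribosomal protein genes were more negative in striatum than in cortex and cerebellum. Without the 2 mice whose striatal libraries were repeated the counts were 0 and 0. The count over all 20459 genes, in either direction at an unadjusted p under 0.05, moved as well. Against cortex 1323 genes became 1085 with the block and 232 without the 2 mice. Against cerebellum 840 became 658 and 258. The ribosomal protein counts below are to be read beside such shifts. Against cortex the count of 38 was 8 without mouse M751, 9 without mouse M752, 11 without mouse M756, 21 without mouse M758, 25 without mouse M763 and 9 without mouse M761, and it was 65 without mouse M760 and 78 without mouse M757. Against cerebellum the count of 22 was 3 without mouse M751, 2 without mouse M752, 8 without mouse M755, 0 without mouse M758, 3 without mouse M761 and 1 without mouse M762. It was 41 without mouse M754, 55 without mouse M757, 75 without mouse M759, 43 without mouse M760 and 59 without mouse M763.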

How the data were processed

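RNA from mouse striatum, cortex and cerebellum was sequenced. The authors aligned the reads with STAR 2.4.2 to GRCm38 with Ensembl annotation and deposited raw counts per gene from its GeneCounts option, which leaves out reads that align to several places. The strand column kept is not given in the sources used here, so overlapping genes are uncertain. The table lists 47069 genes, and 92 ERCC spike-ins that entered neither library sizes nor tests. GENCODE M21 named 46574 identifiers.

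Genes with over 4 counts in 6 or more libraries were tested with edgeR 4.0.16 (R 4.3.3), by TMM and robust quasi-likelihood with litter as a term and Benjamini-Hochberg adjustment. The study's own design used surrogate variables over all litters, and 2 and 4 surrogate variables (sva 3.50.0) were alternatives, as was DESeq2 1.42.0. Standard errors were the log2 fold change over the square root of F. A list's level is the mean of its genes' log2 CPM (prior count 2). Groups over 5 mice are given by lowest, median and highest TMM-normalized count. The steps were tested on simulated data. With at least 26130088 gene counts per library, the spread between libraries was the limit. Pairs of libraries of 1 genotype differed by a chi-square of at least 32.6 per gene. Each mouse gave a single striatal library, so this spread does not separate mouse, dissection and library preparation.

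The 24 lists and the comparisons were chosen with earlier results of these data known. Named genes were Mbd5, per direction the 12 protein-coding genes of smallest p with a mean count of at least 50 and 1 direction in both litters, without Gm and Rik symbols, Y-linked genes, Xist and Tsix, up to 4 members of each list with an unadjusted p under 0.05 and its most abundant member, and the 3 leading genes per direction of each difference. Some genes that this rule names are not reported here. The mouse pairs the regions, since its 3 libraries come from 1 animal. Deviations of the same mouse correlated with a median of 0.11 between striatum and cortex and −0.041 between striatum and cerebellum. The genotypes in striatum share no mouse.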

Additional observations from a re-analysis of the deposited data

Results flagged for a closer look

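Among 100 groups of values (list levels, leading genes and spike-in shares in each genotype), 5 held a mouse far from the rest of its group by Dixon's criterion, which chance gives in about 1 in 20. The level of striatal interneuron genes was 2.95 in WT mouse M754, with the next WT mouse at 4.49. That of thalamic and hypothalamic genes was 3.93 in Mbd5+/GT mouse M758, with the next at 1.09. That of microglial genes was 4.44 in Mbd5+/GT mouse M763, with the next at 4.99. In Mbd5+/GT mouse M753 the level of mitochondrially encoded genes was 6.36, with the next at 7.03, and the spike-in share was 0.451%, with the next at 0.174%.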

How the results depend on the processing

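Depth was not the limit. The mice were few, and litter 2 entered only the alternative with all 18 mice, since it held 1 WT mouse. Alternatives without mice M754 and M761, with the spike-in share and with the projection neuron level were chosen after seeing the data. The adjusted count of 0 was 35 with DESeq2, and 0 to 1210 when 1 library was left out (1210 without WT mouse M757), with 0 also without the repeated libraries. The unadjusted count of 3337 was 1380 without the repeated libraries, 1465 in females, 1909 with 18 mice, 858 in litter 3 and 432 with the spike-in share. Leaving out 1 library gave 2190 (M763) to 4686 (M757). Mbd5 was −0.22 in litter 1 alone, past no threshold, and −0.35 to −0.24 over single libraries left out. Ribosomal protein genes lower (76) were 50 with 18 mice, 9 in litter 3 and 3 with the spike-in share, and 68 to 77 over single libraries left out. Oxidative phosphorylation genes lower (68) were 42 in females, 19 in litter 3 and 7 with the spike-in share, and 61 to 71 over single libraries left out. Autism genes higher (11) were 4 without the repeated libraries, 6 in females, 6 with 18 mice, 1 in litter 3 and 0 with the spike-in share, and 8 to 13 over single libraries left out. Projection neuron genes lower (0) were 2 and 4 with 2 and 4 surrogate variables, 1 in litter 3, 11 without mice M754 and M761, 3 with their own level as a term, 0 without the repeated libraries, and 0 to 2 over single libraries left out.

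For the litter difference, the adjusted count of 0 was 1 with DESeq2, 0 without the repeated libraries and 0 to 1 over single libraries left out (1 without M755). The unadjusted 563 was 1145 without the repeated libraries and 279 to 1163 over single libraries left out. Between striatum and cortex DESeq2 gave 1 adjusted gene. The unadjusted 1323 was 599 without M754 and M761, 232 without the mice of the repeated libraries, and 439 (M756) to 3412 (M757) over single mice left out, and ribosomal protein genes (38) were 5, 0 and 8 to 78. Between striatum and cerebellum the unadjusted 840 was 1314, 258 and 339 (M758) to 2176 (M759), and ribosomal protein genes (22) were 8, 0 and 0 to 75, and 36 with 10 counts required in every library. Single mice that moved the unadjusted counts by over 1.5 times were, against cortex, M751 (592), M752 (668), M755 (2429), M756, M757, M761 (672) and M763 (645), and, against cerebellum, M751 (425), M752 (395), M753 (1401), M754 (1360), M757 (1929), M758, M759, M761 (470) and M762 (493). With the mouse as a replicate block the ribosomal counts were 30 and 11, the unadjusted counts 1085 and 658, and no adjusted call changed. The cause of these changes was not tested. Of the named genes' values, 739 kept direction and threshold and 5 lost the threshold (Fmn1 and Aff2 with 18 mice, Ankrd26 in litter 1, Rps14 in litter 3, Id1 with the spike-in share), and 0 reversed. Those genes were chosen by p and direction in the same libraries, so these counts describe the choice. Of the list medians, 734 moved by less than the spread between mice and 10 by more.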
